A study of Mus musculus with 5 samples.

Results

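The genes described here encode 9 synaptic adhesion proteins: the neurexins Nrxn2 and Nrxn3, the neuroligins Nlgn1, Nlgn2 and Nlgn3, and the leucine-rich repeat transmembrane proteins Lrrtm1, Lrrtm2, Lrrtm3 and Lrrtm4. They were taken by name from the RefSeq annotation of GRCm38, in which they are 9 of 21887 protein-coding genes on chromosomes 1 to 19, X and Y, and the rule that lists them uses gene names and no measured value, although it was written with earlier results of these data known. Neurexins sit in the presynaptic membrane and bind neuroligins and Lrrtm proteins across the synaptic cleft, and these pairings help to organise excitatory and inhibitory synapses. Several of the genes are among the very long genes of neurons, with large introns, and neurexin genes make long alpha and short beta forms from separate start sites. ATRX, the protein whose binding was profiled, is a chromatin remodeller of the SWI/SNF family that works with the chaperone DAXX to place histone H3.3, and its best known sites are heterochromatin and repeats.

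ATRX was immunoprecipitated from primary neurons of C57BL6/J mouse embryos taken at E15.5-17.5 (embryonic days), grown in Neurobasal A to which B27, fetal bovine serum at 2% and glutamine at 2 mM had been added, and infected with lentivirus on day 5 in vitro. The control library was labelled mCherry, a red fluorescent protein, and came from neurons at 14 days in vitro (DIV14). The libraries labelled TBC1D3 and MICAL1-M1 also came from DIV14 neurons, and the last was an mCherry library at 7 days in vitro (DIV7). The promoter that drives each transgene and the number of embryos behind each library are not stated by the labels, and the peak names in the library labelled MICAL1-M1 begin with M2. There was 1 library in each group, so every comparison below is between libraries and has no replicate check. Input DNA served as the background, and its own library was not analysed here.

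The deposited lists held 96670 peaks in control, 199059 with TBC1D3, 141387 with MICAL1-M1 and 213982 in mCherry DIV7, or 36.3, 74.7, 53.1 and 80.2 summits per Mb. A summit is the base of highest signal in a peak. The peaks passed a p-value of 0.05 that was not corrected for the number of places tested, and a corrected q-value of at most 0.05 was met by 4.19%, 0.205%, 0.463% and 0.236% of them, in the same order. The most common background pileup (the number of fragments that the peak caller took as the background at a peak) was 3.56, 1.22, 2.61 and 1.28. The TBC1D3 and mCherry DIV7 lists thus rested on the fewest fragments. The median peak summit held 9, 4, 7 and 4 fragments. The total read depth is unknown. All intervals below are 95% intervals and cover counting error only.

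RefSeq's promoter table for GRCm38.p6 holds 10 start sites for 6 of the 9 genes, and none for Nrxn2, Nlgn3 and Lrrtm2. A site was called occupied when a summit lay within 1 kb of it. Of the 10 sites, 6 were occupied in control, 3 with TBC1D3, 8 with MICAL1-M1 and 4 in mCherry DIV7, against 42.8%, 25.6%, 37.4% and 25.8% of all 21263 start sites of protein-coding genes in the table. The 2 sites of Lrrtm4 lie less than 1 kb apart, so their windows overlap. A single site of the 10, the first of Nlgn1, was occupied in all 4 lists, as were 4.81% of all sites, and 1 site, the second of Nrxn3, was occupied in none, as were 32.8% of all sites.

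The 250 bases upstream of 5 of these sites follow, 5′ to 3′ on the gene's own strand, with each CG dinucleotide in capitals. They show the promoter of each site and need not lie beneath a peak, since a summit could be up to 1 kb away on either side. They are the sites of Nlgn1, Nrxn3, Nlgn2 and Lrrtm3 that the results below turn on and, for contrast, the Nrxn3 site without a summit in any list.
Nlgn1, first start site, chr3:26331910-26332159, minus strand: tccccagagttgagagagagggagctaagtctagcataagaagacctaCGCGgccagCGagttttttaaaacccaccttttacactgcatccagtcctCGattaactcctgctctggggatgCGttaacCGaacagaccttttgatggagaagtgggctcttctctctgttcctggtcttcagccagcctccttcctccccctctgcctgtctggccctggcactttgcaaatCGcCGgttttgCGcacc
Nrxn3, the third start site, chr12:89812233-89812482, plus strand: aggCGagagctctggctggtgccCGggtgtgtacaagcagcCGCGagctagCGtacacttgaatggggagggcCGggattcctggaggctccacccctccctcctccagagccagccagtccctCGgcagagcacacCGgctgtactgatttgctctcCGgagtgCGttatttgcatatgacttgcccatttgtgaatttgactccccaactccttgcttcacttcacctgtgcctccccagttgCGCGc
Nlgn2, start site, chr11:69837785-69838034, minus strand: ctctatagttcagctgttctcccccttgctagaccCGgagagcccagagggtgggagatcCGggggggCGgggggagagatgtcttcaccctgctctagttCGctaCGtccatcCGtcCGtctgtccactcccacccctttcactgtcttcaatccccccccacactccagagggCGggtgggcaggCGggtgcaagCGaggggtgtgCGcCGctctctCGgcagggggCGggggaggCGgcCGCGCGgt
Lrrtm3, start site, chr10:64090256-64090505, minus strand: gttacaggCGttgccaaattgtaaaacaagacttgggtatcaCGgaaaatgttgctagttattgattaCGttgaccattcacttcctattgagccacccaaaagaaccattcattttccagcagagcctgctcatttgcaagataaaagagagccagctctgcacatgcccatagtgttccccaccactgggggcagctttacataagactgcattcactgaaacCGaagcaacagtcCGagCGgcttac
Nrxn3, second start site, chr12:88953140-88953389, plus strand: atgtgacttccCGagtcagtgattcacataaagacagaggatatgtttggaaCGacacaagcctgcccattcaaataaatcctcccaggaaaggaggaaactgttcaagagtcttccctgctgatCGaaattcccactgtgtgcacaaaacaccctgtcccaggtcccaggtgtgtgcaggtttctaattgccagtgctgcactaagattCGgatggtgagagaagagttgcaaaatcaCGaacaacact

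The sequences differ widely in CG content. The Nlgn2 sequence held 18 CG dinucleotides at 67.6% G+C, and 29.0% of the 21263 promoter sequences of the same length held at least as many. The third Nrxn3 sequence held 12 at 60.0% G+C, and the first Nlgn1 sequence held 9 at 53.6%. The Lrrtm3 sequence held 6 at 46.0%, and the second Nrxn3 sequence held 5 at 46.8%. The median over all the sequences was 10 CG dinucleotides and 55.6% G+C, so only 2 of the 5 were above the median in CG count. Runs of at least 4 G or 4 C were also counted, which covers GGGG on both strands. The Nlgn2 sequence held 8 such runs, as many as or more than all but a small share of promoters (8.73% held at least 8), and the second Nrxn3 sequence held 0. At least 1 run was present in 85.3% of all promoter sequences.

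The first Nlgn1 start site lies 0.957 kb inside the annotated end of the gene, and its peaks differed in strength between lists. The summit lay 558 bp downstream of the site in control, with a fold enrichment of 3.94 over background (the caller's own value, as are all enrichments below). It lay 271 bp downstream in MICAL1-M1 with 2.14, 263 bp downstream in mCherry DIV7 with 3.94, and 543 bp upstream in TBC1D3 with 1.91. The control summit rested on 17 fragments and had a q of 0.0023, and the mCherry DIV7 summit rested on 8 fragments and had a q of 0.16.

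The second Nlgn1 start site, 179 kb into the gene on chr3, carried one of the 2 control peaks in the 9 gene bodies that a peak of every other list overlapped. The control peak (chr3:26152215-26154578) had an enrichment of 3.48 and a q of 0.007. The overlapping peaks had enrichments of 3.60 with TBC1D3, 2.89 with MICAL1-M1 and 3.58 in mCherry DIV7. Their q-values were 0.46, 0.32 and 0.4, in the same order. They rested on 7, 14 and 8 fragments, against 18 in control. That TBC1D3 peak was the strongest of its list in Nlgn1, and its summit lay outside the 1 kb window. The TBC1D3 summit nearest to the site belonged to another peak, 1033 bp upstream, with an enrichment of 2.26. The other such peak lay in Lrrtm1 (chr6:77243568-77244567), with enrichments of 3.51 in control, 2.55 with TBC1D3, 2.64 with MICAL1-M1 and 3.90 in mCherry DIV7. The fragments there were 15, 7, 11 and 8, in the same order. These 2 peaks are 0.664% of the 301 control peaks in the members (exact interval 0.0806% to 2.38%), against 1.68% of all control peaks.

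The third Nrxn3 start site lies 1090 kb into the gene. The TBC1D3 summit there, 345 bp downstream, had an enrichment of 4.06 and a q of 0.081, and was the strongest TBC1D3 peak in Nrxn3. It rested on 8 fragments over a background of 1.22, where the most common control background was 3.56, so enrichments are not alike between these lists. The control summit lay 289 bp upstream with an enrichment of 2.60, and the MICAL1-M1 summit 688 bp downstream with 1.94. In mCherry DIV7 the nearest summit was 3374 bp away, outside the window. Occupancy of Nrxn3 start sites thus lay at the third site in the 3 DIV14 lists and at the first site in mCherry DIV7, where a summit lay 631 bp downstream with an enrichment of 2.07.

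Occupancy at the annotated gene ends covers all 9 genes, including those with no entry in the promoter table. A summit lay within 1 kb of either end of 6 of the 9 genes in control, 3 with TBC1D3, 7 with MICAL1-M1 and 1 in mCherry DIV7. Over all protein-coding genes the shares were 42.3%, 33.4%, 38.7% and 33.2%. Summits spread evenly at each list's own density would reach 1.22, 2.32, 1.72 and 2.47 of the 9 genes. The counts for control and MICAL1-M1 were thus above both references, that for TBC1D3 was close to them, and that for mCherry DIV7 was below them, though each rests on 9 genes and was not tested. Within 3 kb the counts were 9, 7, 7 and 6 of 9, against 53.0%, 57.7%, 53.2% and 59.3% of all genes and 3.18, 5.33, 4.24 and 5.56 genes at even density, and the order of the lists at 1 kb was not kept.

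**Figure D1:**
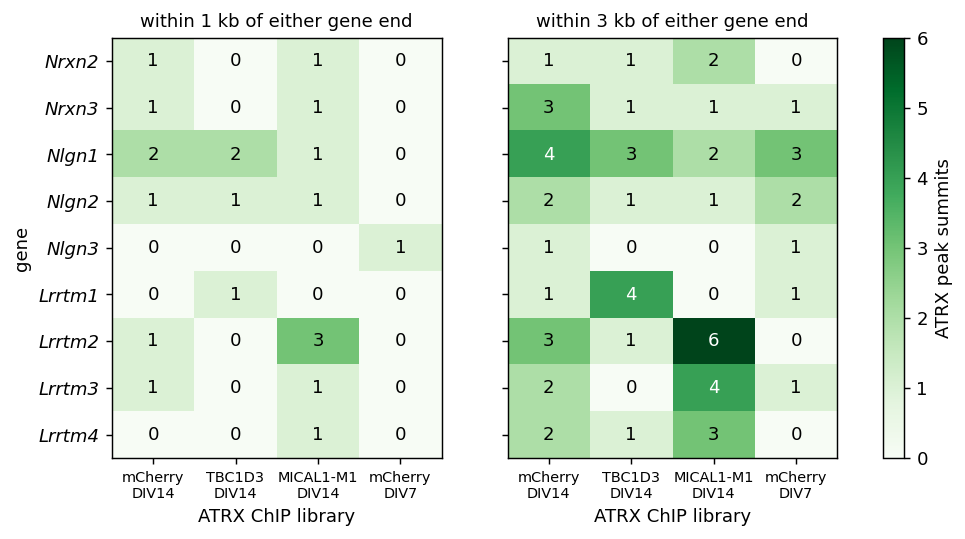
ATRX summits within 1 kb (left) and 3 kb (right) of either annotated end of each gene (rows) in each of the 4 libraries (columns), with the count printed in each cell and shown by colour. At 1 kb the mCherry DIV7 column holds 1 summit, at Nlgn3, and the MICAL1-M1 column holds 9, of which 3 are at Lrrtm2.

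The presynaptic receptors Nrxn2 and Nrxn3 had the same pattern of gene-end occupancy. Nrxn2 (chr19:6418756-6533217) had a summit 454 bp from its lower end in control and 279 bp from it in MICAL1-M1, with enrichments of 1.93 and 1.92. The lncRNA Gm14965 overlaps that end, and both summits lay inside it. In TBC1D3 the nearest summit was 1099 bp from the lower end of Nrxn2, just outside the window, and in mCherry DIV7 it was 5264 bp away. Nrxn3 (chr12:88722701-90334935) had a summit 594 bp from its lower end, the side of its start, in control and 359 bp from it in MICAL1-M1, with enrichments of 1.75 and 2.62. The nearest summits were 1698 bp away in TBC1D3 and 2390 bp away in mCherry DIV7. No list had a summit within 3 kb of the upper end of either gene.

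The neuroligins, the postsynaptic partners of neurexins, differed from each other. Nlgn1 (chr3:25421808-26332866), found mainly at excitatory synapses, had 2 summits at its upper end in control, 1 at each end in TBC1D3, 1 at its upper end in MICAL1-M1 and none within 1 kb in mCherry DIV7, where the nearest lay 1051 bp from the lower and 1220 bp from the upper end. The lncRNA gene A830092H15Rik overlaps the upper end, and the 2 control summits, the MICAL1-M1 summit and the upper TBC1D3 summit all lay inside it. The strongest control gene-end peak of Nlgn1 had an enrichment of 3.29 and a q of 0.047. Nlgn2 (chr11:69823123-69837784), found mainly at inhibitory synapses, had 1 summit at its start in each DIV14 list, with enrichments of 2.38 in control, 2.70 in TBC1D3 and 2.57 in MICAL1-M1, and in mCherry DIV7 the nearest was 2384 bp away. The control summit lay 869 bp outside Nlgn2 and inside the neighbouring gene Tmem256, which is 741 bp away, whereas the TBC1D3 and MICAL1-M1 summits lay 593 and 132 bp inside Nlgn2. Nlgn3 (chrX:101299179-101321350), an X-linked gene, had a single summit within 1 kb, in mCherry DIV7, 969 bp from its upper end with an enrichment of 2.63. Chromosome X held 0.418% of the summits in control, 1.79% with TBC1D3, 0.924% with MICAL1-M1 and 2.77% in mCherry DIV7, and the part of this in the Nlgn3 counts was not tested.

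The Lrrtm genes encode postsynaptic ligands of neurexins, and 3 of the 4 lie inside genes for alpha-catenins, which link cadherins to actin. Lrrtm2 (chr18:35209003-35215024, inside Ctnna1) had 1 summit at its upper end in control, with an enrichment of 3.29 and a q of 0.047, and 3 summits in MICAL1-M1, 2 at the lower and 1 at the upper end. Its nearest summits were 1443 bp away in TBC1D3 and 11408 bp away in mCherry DIV7. Lrrtm3 (chr10:63928497-64090255, inside Ctnna3) had a summit at its start in control (840 bp) and in MICAL1-M1 (29 bp), with enrichments of 2.41 and 2.57, and the nearest were 4958 bp away in TBC1D3 and 2196 bp in mCherry DIV7. Lrrtm4 (chr6:80018858-80810162) had a summit within 1 kb of an annotated end in MICAL1-M1 alone among the 4 lists. That summit lay 280 bp from the lower end, the side of the gene's start, with an enrichment of 2.65. At the second Lrrtm4 start site, 0.785 kb inside the gene, control also had a summit, 931 bp downstream with an enrichment of 3.51. Lrrtm1 (chr6:77229210-77259915, inside Ctnna2) had a summit within 1 kb of an annotated end in TBC1D3 alone, 886 bp from its upper end with an enrichment of 2.16. The start site of Lrrtm1 lies 13.3 kb inside the gene. Within 1 kb of that site, summits lay in MICAL1-M1 (nearest 332 bp, enrichment 3.05) and mCherry DIV7 (562 bp, 2.07). Neither control nor TBC1D3 had a summit there. At the annotated ends of the Lrrtm genes, control and MICAL1-M1 thus shared occupancy at Lrrtm2 and Lrrtm3. In mCherry DIV7 none of these ends had a summit within 1 kb.

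No member had an annotated end occupied within 1 kb in all 4 lists, and none was empty in all 4. The shares of all protein-coding genes were 6.24% and 27.0%. By gene, 3 members were occupied in 1 list, 4 in 2 and 2 (Nlgn1 and Nlgn2) in 3, beside 26.9%, 23.7% and 16.1% of all genes. In TBC1D3, 1 member was occupied that was not in control (Lrrtm1). In control, 4 were occupied that were not in TBC1D3 (Nrxn2, Nrxn3, Lrrtm2 and Lrrtm3), and the shares of all genes were 15.6% and 24.4%. For MICAL1-M1, 1 was occupied there and not in control (Lrrtm4) and 0 in control only, against 11.6% and 15.2%. For mCherry DIV7, 1 was occupied there and not in control (Nlgn3) and all 6 of control in control only, against 15.7% and 24.7%. These calls use the annotated ends. At start sites, control was occupied at Lrrtm4 and mCherry DIV7 at Nlgn1 (263 bp downstream, enrichment 3.94). Few peaks at these ends were strong: over the 4 lists, the 2 that met a q of 0.05 were the control peaks at Nlgn1 and Lrrtm2.

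Along the gene bodies, the members held more control summits than the list's average stretch of chromosome. Density is given below as summits per Mb of gene body divided by summits per Mb over chromosomes 1 to 19, X and Y in the same list, so that 1 is the list's mean. Over the 9 bodies together, 3664 kb in all, this scaled density was 2.26 in control (301 summits, interval 2.01 to 2.53), 1.07 in TBC1D3 (293 summits, 0.952 to 1.20), 2.08 in MICAL1-M1 (405 summits, 1.88 to 2.29) and 1.08 in mCherry DIV7 (319 summits, 0.969 to 1.21). All protein-coding gene bodies together had 1.40, 1.04, 1.27 and 1.01. The control and MICAL1-M1 lists were therefore dense along these genes, and the intervals of the other two included the list mean. Nrxn3 and Nlgn1 gave most of the summits, 221 of 301 in control.

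Among the 5 members of 100 kb or more, Nrxn2, Nrxn3, Nlgn1, Lrrtm3 and Lrrtm4, a scaled density of 2 or more was reached by 3 in control, 0 with TBC1D3, 2 with MICAL1-M1 and 0 in mCherry DIV7. Of all 2429 protein-coding genes of that length, 27.4%, 4.2%, 21.4% and 3.13% reached it. The median of those genes was 1.27, 1.10, 1.32 and 1.04. The spread of the long genes also differed between the lists, with the middle 90% of them between 0 and 3.68 in control, 0.317 and 1.93 in TBC1D3, 0.181 and 2.95 in MICAL1-M1 and 0.357 and 1.85 in mCherry DIV7. The 2 lists with the narrow spread are the 2 with the low background pileup and also the 2 with the most peaks. More peaks mean a smaller counting error per gene. The parts of depth and of counting error in the spread were not tested.

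**Figure D2:**
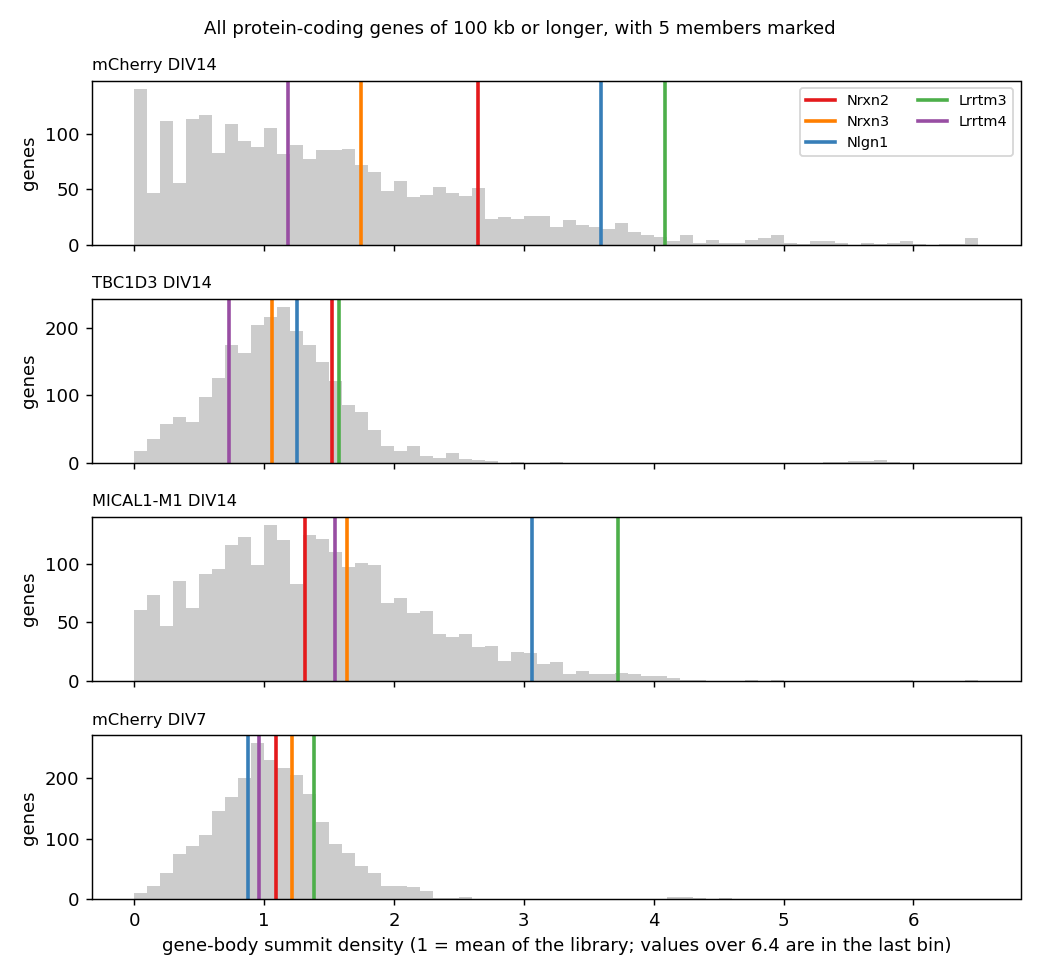
Histograms of the scaled gene-body summit density (x axis, 1 = mean of the library) of the 2429 protein-coding genes of 100 kb or more in each library (y axis, number of genes), with coloured lines at 5 members. Nlgn1 and Lrrtm3 lie in the right tail in mCherry DIV14 (3.60 and 4.09) and MICAL1-M1 DIV14 (3.06 and 3.73) and within the bulk of the genes in the other libraries.

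Nlgn1 was the member with the firmest contrast. Its body held 119 summits in control, 85 with TBC1D3, 148 with MICAL1-M1 and 64 in mCherry DIV7. The scaled density was 3.60 in control (2.98 to 4.30), 1.25 in TBC1D3 (0.998 to 1.54), 3.06 in MICAL1-M1 (2.59 to 3.59) and 0.875 in mCherry DIV7 (0.674 to 1.12). In order from the highest, control and MICAL1-M1 overlapped in their intervals, as did TBC1D3 and mCherry DIV7, and the first pair lay above the second. Among the 227 genes of 500 kb or more, Nlgn1 ranked 12 from the top in control and 4 in MICAL1-M1, but 89 in TBC1D3 and 186 in mCherry DIV7.

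In control and MICAL1-M1, Nlgn1 was denser than the regions beside it. Each side was counted whole, so the place where the density falls was not resolved. The stretches of equal length on either side had scaled densities of 1.24 and 1.48 in control, with intervals of 0.889 to 1.68 and 1.10 to 1.96, and of 1.51 and 1.41 in MICAL1-M1. In TBC1D3 the sides had 1.22 and 1.47, close to the gene's own 1.25, and in mCherry DIV7 they had 1.19 and 1.26. Inside the gene, each of 10 equal parts had a scaled density of 2.12 to 4.84 in control and 1.65 to 4.13 in MICAL1-M1. The parts ranged over 0.735 to 2.06 in TBC1D3 and 0.41 to 1.23 in mCherry DIV7, so the control value was above that of both in every part. The strongest control peak of Nlgn1 (chr3:26134817-26135834) had 19 fragments, an enrichment of 4.15 and a q of 0.00041.

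**Figure D3:**
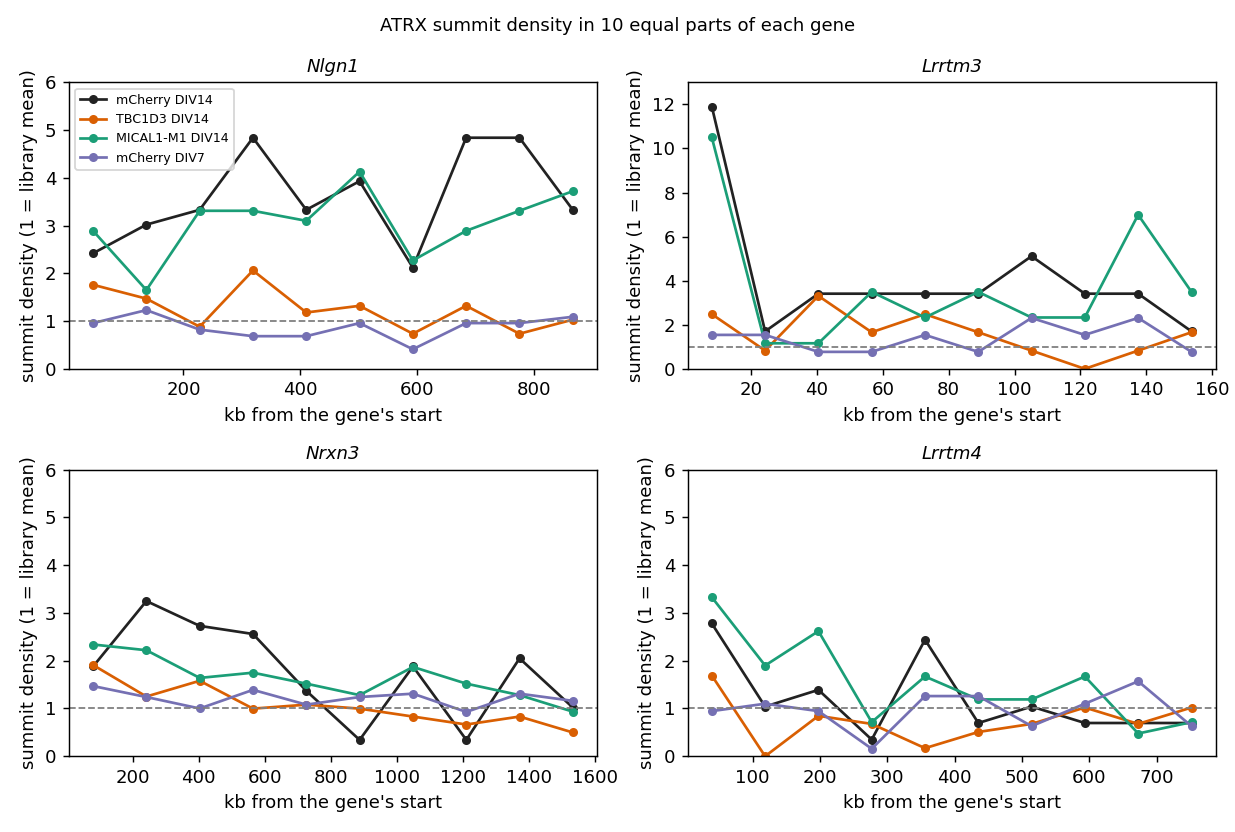
Scaled ATRX summit density (y axis, 1 = mean of the library) in 10 equal parts of Nlgn1, Lrrtm3, Nrxn3 and Lrrtm4, against distance from the gene's start in kb (x axis), 1 line per library. In Nlgn1 the mCherry DIV14 and MICAL1-M1 DIV14 lines stay above the TBC1D3 DIV14 and mCherry DIV7 lines in every part, and in Lrrtm3 they are highest in the first part, at 11.9 and 10.5.

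Lrrtm3 resembled Nlgn1 with fewer summits. Its body held 24 summits in control, 19 with TBC1D3, 32 with MICAL1-M1 and 18 in mCherry DIV7, for scaled densities of 4.09 (2.62 to 6.08), 1.57 (0.947 to 2.46), 3.73 (2.55 to 5.26) and 1.39 (0.822 to 2.19). The 10th of the gene next to its start held 7 of the 24 control summits and 9 of the 32 MICAL1-M1 summits. Because Lrrtm3 lies inside Ctnna3, the rest of that long host gene serves as a reference. Lrrtm3 was denser than the rest of Ctnna3 by a ratio of 4.46 (2.61 to 7.44) in control and 3.58 (2.30 to 5.47) in MICAL1-M1. The ratio was 1.51 (0.874 to 2.47) in TBC1D3 and 1.38 (0.789 to 2.28) in mCherry DIV7, with intervals that include 1. The rest of Ctnna3 was itself near the list mean in all 4 lists, at 0.917, 1.04, 1.04 and 1.01. The stretches of equal length directly beside Lrrtm3 were less even. In control they had 2.04 (1.06 to 3.57) below the gene and 0.681 (0.186 to 1.74) above it. In MICAL1-M1 they had 0.815 (0.328 to 1.68) and 1.51 (0.806 to 2.59). The lower control interval and the upper MICAL1-M1 interval overlap those of Lrrtm3 in the same lists.

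The other nested Lrrtm genes are short and their counts are small. Lrrtm1 held 8 summits in control, 4 with TBC1D3, 6 with MICAL1-M1 and 6 in mCherry DIV7. Its scaled density in control was 7.18 (3.10 to 14.1), 2.78 times that of the rest of Ctnna2 (1.17 to 5.69), while the ratios in the other lists, 1.46, 1.47 and 2.15 in the same order, had intervals that include 1. The rest of Ctnna2 was dense in its own right in control and MICAL1-M1, at 2.58 and 2.51, and was at 1.19 in TBC1D3 and 1.13 in mCherry DIV7. Lrrtm2 held 2 summits in control and 4 in MICAL1-M1, the latter 6.63 times the density of the rest of Ctnna1 (1.58 to 21.5). It held none in TBC1D3 or mCherry DIV7, where counts of 0 allow scaled densities of up to 6.67 and 6.21. The control density of Lrrtm2 was 9.15, with an interval of 1.11 to 33.0 that includes both limits. A difference from control was therefore not detectable at this count.

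**Figure D4:**
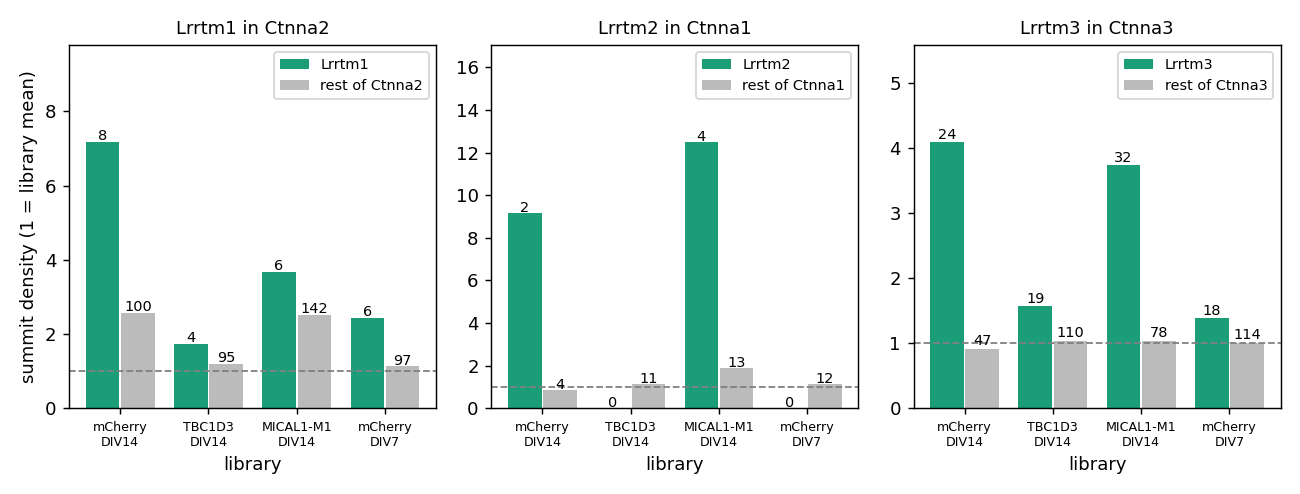
Scaled ATRX summit density (y axis, 1 = mean of the library) of Lrrtm1, Lrrtm2 and Lrrtm3 (green bars) and of the rest of the alpha-catenin gene that contains each (grey bars) by library (x axis), with the number of summits above each bar. The vertical scales differ between panels, and Lrrtm3 stands above the rest of Ctnna3 in mCherry DIV14 (4.09 against 0.917) and MICAL1-M1 DIV14 (3.73 against 1.04).

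In control and MICAL1-M1 the neurexin genes were less dense than Nlgn1 and Lrrtm3, though the control interval of Nrxn2 overlapped theirs. Nrxn3, the longest member, had scaled densities of 1.74 in control (102 summits, 1.42 to 2.12), 1.06 in TBC1D3 (128, 0.887 to 1.26), 1.64 in MICAL1-M1 (140, 1.38 to 1.93) and 1.21 in mCherry DIV7 (157, 1.03 to 1.42). The control value of Nrxn3 ranked 827 of 2429 long genes, well outside the dense tail. Its sides were unequal in control, at 0.307 (0.182 to 0.486) below the gene and 0.888 above it, and also in MICAL1-M1, at 0.467 (0.334 to 0.636) and 1.14. They were 1.04 and 1.15 in TBC1D3 and 0.982 and 1.08 in mCherry DIV7. Within the gene, the control values were highest in parts 2 to 4 of its 10, up to 3.25. Nrxn2 had 11, 13, 8 and 10 summits in the 4 lists, for scaled densities of 2.65 (1.32 to 4.74), 1.52, 1.32 and 1.09, and the intervals of all 4 overlapped.

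Lrrtm4, which lies in no host gene, covered a narrower range of densities over the lists than Nlgn1 or Lrrtm3. Its scaled densities were 1.18 in control (34 summits, 0.819 to 1.65), 0.728 in TBC1D3 (43, 0.527 to 0.98), 1.55 in MICAL1-M1 (65, 1.19 to 1.97) and 0.961 in mCherry DIV7 (61, 0.735 to 1.23). The interval was above the list mean in MICAL1-M1, below it in TBC1D3 and included it in control and mCherry DIV7. The first 10th of Lrrtm4 was its densest part in control, TBC1D3 and MICAL1-M1, at 2.78, 1.69 and 3.33, and not in mCherry DIV7, where it was 0.945. The short neuroligin genes held too few summits for a density. Nlgn2 had 0, 1, 2 and 2 summits in the 4 lists and Nlgn3 had 1, 0, 0 and 1.

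**Figure D5:**
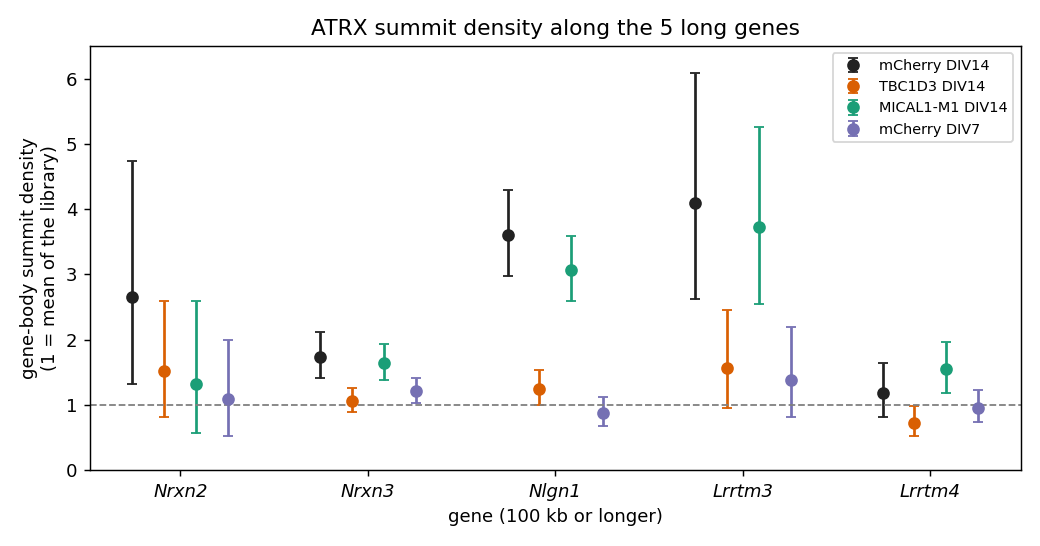
Scaled gene-body summit density (y axis, 1 = mean of the library) of the 5 members of 100 kb or more (x axis) in the 4 libraries, with points for the value and bars for the exact 95% Poisson interval. For Nlgn1 the mCherry DIV14 and MICAL1-M1 DIV14 intervals lie wholly above those of the other libraries, and for Nrxn2 all 4 intervals overlap.

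As ratios to control, the pooled scaled density of the 9 genes was 0.473 in TBC1D3 (0.402 to 0.558), 0.92 in MICAL1-M1 (0.791 to 1.07) and 0.48 in mCherry DIV7 (0.408 to 0.563). The median ratio over long genes was 0.81, 0.967 and 0.776, so long genes as a class also moved in TBC1D3 and mCherry DIV7. These comparisons share the control library. For Nlgn1 the ratios were 0.347 (0.26 to 0.463), 0.85 (0.664 to 1.09) and 0.243 (0.177 to 0.333), which ranked 12, 64 and 4 from the lowest among 224 genes of 500 kb or more with a control summit. For Lrrtm3 they were 0.385, 0.912 and 0.339, and for Nrxn3 0.61, 0.939 and 0.697. A density of at most 0.5 of control was found for 2 of the 5 long members in TBC1D3 (Nlgn1 and Lrrtm3), 1 in MICAL1-M1 (Nrxn2) and 3 in mCherry DIV7 (Nlgn1, Lrrtm3 and Nrxn2). The shares of the 2304 long genes with a control summit were 23.6%, 5.43% and 24.1%.

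Nlgn1 and Lrrtm3 had high control values, and their ratios divide by those values. The 666 long genes with a control density of 2 or more, a grouping made after the values were seen, had medians of 2.69 in control, 1.34 with TBC1D3, 2.21 with MICAL1-M1 and 1.27 in mCherry DIV7. Because the class was picked by its control value, a fall from control in the other lists is built into the choice and is no result. The middle 90% of this class covered 0.682 to 2.24 in TBC1D3 and 0.646 to 2.11 in mCherry DIV7, ranges that include the values of Nlgn1, Lrrtm3 and Nrxn2. The genes most like Nlgn1 over the 4 lists were Pde4b, which encodes a cyclic AMP phosphodiesterase, Pcdh9, a protocadherin, and Cadm2, a cell adhesion molecule of the immunoglobulin family. Likeness was the distance between log2 scaled densities over 4 lists among genes of 500 kb or more, and was 0.19, 0.19 and 0.23 for these. Pcdh9 had 3.85, 1.25, 2.74 and 0.907 where Nlgn1 had 3.60, 1.25, 3.06 and 0.875. By the same measure Nrxn3 was most like Erc2, Smyd3 and Macrod2, at 0.24, 0.25 and 0.26, and Lrrtm4 was most like Erbb4, Hdac9 and Adgrv1, at 0.38, 0.44 and 0.47.

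Pooled over the members, their peaks had about the strength of the rest of each list. In control, 14 of the 301 peaks in member bodies met a q of 0.05, or 4.65% (2.57% to 7.68%), against 4.18% of the list. In MICAL1-M1 2 of 405 did, or 0.494%, against 0.442%. In TBC1D3 0 of 293 and in mCherry DIV7 0 of 319 did, against 0.166% and 0.194% of those lists. The median enrichment was 2.19 in control, 2.26 with TBC1D3, 2.22 with MICAL1-M1 and 2.19 in mCherry DIV7, against list medians of 2.19, 2.26, 2.21 and 2.19. By gene, the control median was 2.41 in Lrrtm3, 2.63 in Lrrtm1 (8 peaks) and 3.51 in Lrrtm2 (2 peaks). It was 2.28 in Nlgn1, 2.19 in Nrxn2, Nrxn3 and Lrrtm4, and 1.87 in Nlgn3 (1 peak). Along the members the lists differed in scaled density, while the pooled median enrichment was nearly that of each list.

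Most control peaks in the member bodies, as in the whole list, were not overlapped by a peak of any 1 other list. Of the 301 control peaks in member bodies, 18.3% (14.1% to 23.1%) were overlapped by at least 1 base of a MICAL1-M1 peak, against 22.5% of all control peaks. TBC1D3 peaks overlapped 8.64% (5.72% to 12.4%), against 12.7%, and mCherry DIV7 peaks 8.31% (25 of 301), against 12.1%. In Nlgn1, 20 of 119 control peaks were overlapped in MICAL1-M1, 9 in TBC1D3 and 8 in mCherry DIV7.

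The wider group of synaptic organisers that bind these proteins or act beside them was counted from a list of 53 genes. A summit within 1 kb of an end was found for 35 of them in control, 23 with TBC1D3, 37 with MICAL1-M1 and 27 in mCherry DIV7, beside 42.3%, 33.4%, 38.7% and 33.2% of all protein-coding genes. The partners' median scaled body density was 1.90, 1.17, 2.06 and 1.04, against medians of 0, 0.67, 0.435 and 0.663 over protein-coding genes of every length. Short genes, in which few summits can fall, pull those medians down. The medians over protein-coding genes of 100 kb or more were 1.27, 1.10, 1.32 and 1.04. The partners range from short to very long genes, and no reference matched to their lengths was made. Of 19 other postsynaptic organisers, 15, 9, 15 and 8 were occupied, and of 12 other presynaptic organisers, 7, 4, 7 and 5. Of 12 secreted or membrane-anchored binders such as cerebellins and neurexophilins, 7, 7, 10 and 10 were occupied, the single class in which mCherry DIV7 had more than control. Of 10 intracellular binders, 6, 3, 5 and 4 were.

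Of the 53 partners, 10 were occupied in every list and 5 in none, beside 6.24% and 27.0% of all protein-coding genes. The 10 were Cbln1 and C1ql2, secreted C1q-family proteins that bridge pre- and postsynaptic receptors, Mdga2, a membrane-anchored binder of neuroligins, Slitrk4, Slitrk5 and Lrrc4, postsynaptic leucine-rich repeat proteins, Dag1, which encodes dystroglycan, Grid1, a delta-type glutamate receptor that binds cerebellins, Adgrl2, a latrophilin, and Lin7c, an intracellular scaffold. The partner list too was chosen with earlier results of these data known, and its counts were not tested against those of the members or of other genes.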

How the data were processed

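ATRX ChIP DNA was extracted with an enzymatic chromatin kit and sequenced in pairs, per the labels' protocols. The submitters' processing notes name ChIPseeker 1.26.2, MACS 1.4.2, SAMtools 1.9 and Bowtie 1.3.0. The role and settings of each tool, and the reference build, were not given in the sources used here. Lists of 10 columns with q-values are more usual of a later MACS version, so the caller that made the folds and q-values used here is uncertain. Each deposited list has 10 columns: the authors' score, fold ratio over background, −log10 p and −log10 q, and the summit offset. Peaks were called separately in each of 4 libraries. The fragment pileup and background were recovered from the deposited fold and p-value to within 0.001 in log10 p, for 99.98% to 99.99% of peaks.

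Summits were counted against RefSeq GRCm38.p6 genes within 1 kb and 3 kb of gene ends and along gene bodies, and scaled to each list's summits per Mb over 2662 Mb. Intervals are exact Poisson for densities, exact conditional binomial for ratios and Clopper-Pearson for shares. A count of 0 was given the limit of 3 counts. With 1 library per group no test between conditions was made. Promoter sequences came from RefSeq. Members, partner lists and alternatives were chosen with earlier results of these data known. The text names every member, the host genes of Lrrtm1 to Lrrtm3, partners occupied in every list, and the 3 genes most like each member of 500 kb or more; Tmem256 and the overlapping lncRNA genes were named after their values were seen. Alternatives changed the window, the threshold, the list size, the scaling, the unit counted, the members pooled and the overlap. The counting was tested on simulated data. Python 3.11.15, numpy 2.4.6, pandas 2.3.3, scipy 1.17.1, bedtools 2.31.1 and matplotlib 3.10.9 were used.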

Additional observations from a re-analysis of the deposited data

How the results depend on the processing

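No paired analysis was possible because each group has 1 library. Of the alternatives for the counts, pooled densities, ratios and overlaps, 40 kept the value within the set limits, 21 moved it and 8 turned a density or ratio to the other side of 1. With a q of at most 0.05, the members occupied at a gene end within 1 kb fell to 2 in control and 0 in TBC1D3, MICAL1-M1 and mCherry DIV7, and the pooled density was 2.32 in MICAL1-M1 (2 summits) and 0 in TBC1D3, also for Nlgn1, and in mCherry DIV7. The 3 kb window gave 7 members in TBC1D3 and 6 in mCherry DIV7, counting any base of a peak gave 2 in mCherry DIV7, and TBC1D3 had 1 with a p of at most 0.01 and 1 with lists of equal size. The pooled density scaled to each gene's own chromosome was 0.997 with TBC1D3, 1.83 with MICAL1-M1 and 0.998 in mCherry DIV7. Scaled to all protein-coding bodies it was 1.62 in control and 1.64 in MICAL1-M1, and the ratios to control became 0.635 with TBC1D3, 1.01 with MICAL1-M1 and 0.668 in mCherry DIV7. Without Nrxn3, the longest member, it was 2.67 in control, 2.43 in MICAL1-M1 and 0.984 in mCherry DIV7, and the mCherry DIV7 ratio was 0.368. With lists of equal size TBC1D3 had 0.992, and 0.967 for Nlgn1, and with a p of at most 0.01 mCherry DIV7 had 0.993. Requiring overlap of at least 0.5 of the control peak left 2.99% shared with TBC1D3, 9.63% with MICAL1-M1 and 2.33% with mCherry DIV7. The causes of these shifts were not tested, except that the q threshold leaves few peaks. In TBC1D3 and mCherry DIV7 the pooled density was close to the list mean under every alternative but the q threshold, so its side of 1 carries no weight. The TBC1D3 and mCherry DIV7 ratios to control stayed below 1 under every alternative run.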

Other observations

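Marker genes of the cell types a neuronal culture can hold were counted in the same way, although ATRX peaks do not measure expression and so cannot check the labelled cell type. Of 7 neuronal markers, among them Rbfox3, Map2 and Syn1, 5 were occupied at a gene end in the control list and 5 in that of MICAL1-M1, against 2 in TBC1D3 and 3 in mCherry DIV7. Of 5 astrocyte markers, 0, 2, 1 and 3 were occupied (in the order control, TBC1D3, MICAL1-M1, mCherry DIV7), of 5 oligodendrocyte markers 2, 3, 1 and 3, and of 5 microglial markers 0, 1, 0 and 2. Over all protein-coding genes the shares were 42.3%, 33.4%, 38.7% and 33.2%. The marker lists hold 5 to 7 genes each, and their counts were not tested.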
